A study of Mus musculus with 12 samples.

Results

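Expression of 39 genes that encode enzymes of amino acid breakdown was followed in mouse liver after acute iron overload, after a synthetic glucocorticoid (GC), and after both. The 39 genes are those of 55414 rows of the deposited counts table whose Ensembl identifiers carry the symbols of a fixed list, and every listed symbol was found. They were grouped by the amino acid pathway they belong to, with 7 genes for tryptophan, 4 for tyrosine, 4 for histidine, 11 for the branched-chain amino acids, 6 for glycine and serine, 3 for lysine, and 4 for proline and transamination. The livers came from 12 female mice of the C57Bl/6J strain, and the labels name no transgene or deletion. Every mouse received 2 injections, 6 h apart, and its liver was taken 2 h after the second one, so that 8 h had passed in all. NaCl/PBS mice received saline and then PBS. NaCl/DEX mice received saline and then 10 mg/kg of dexamethasone (DEX), a ligand of the glucocorticoid receptor. FeSO4/PBS mice received 300 mg/kg of iron sulfate and then PBS, and FeSO4/DEX mice received iron sulfate and then DEX. Each group held 3 mice, which the series describes as biological replicates. DEX was given to intact mice, which still make their own GCs, and the RNA came from liver tissue, not from sorted cells.

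The liver is the main site of degradation for most amino acids. Breakdown often starts with the removal of the amino group by a transaminase or dehydratase, or with the opening of a ring by an oxygenase. The nitrogen goes to the urea cycle, and the carbon skeleton serves glucose, ketone body or energy production. Fasting hormones, and GCs among them, are textbook inducers of several of these enzymes in hepatocytes, including tryptophan dioxygenase and tyrosine aminotransferase. In branched-chain breakdown, the kinase BCKDK switches the branched-chain keto acid dehydrogenase off, and the phosphatase PPM1K switches it on.

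Between 16335651 and 23827340 reads per library were counted on genes, and the 39 genes took between 0.999% and 1.45% of them. All 39 passed the filter on low counts and were among the 13857 genes tested. Markers matched the labelled tissue: 6 hepatocyte markers summed to at least 2109015 normalized counts in every library, while 4 of 5 markers of kidney tubules were at 0 in all libraries and the other had at most 2. After iron, all 6 Kupffer cell markers were lower (summed 6353 to 7335 normalized counts in NaCl/PBS mice and 3324 to 3929 in FeSO4/PBS mice), and 4 of 5 tested neutrophil markers were higher (summed 112 to 289 against 722 to 882). Of the hepatocyte markers 3 of 6 were higher and none lower (summed 2109015 to 2541811 against 2751563 to 3182020). Periportal markers were higher in 4 of 5 and lower in 1 (107326 to 124957 against 101153 to 153136), pericentral markers lower in 3 of 6 and higher in 1 (131987 to 141432 against 110790 to 130945), and endothelial markers lower in 3 of 6 and higher in 1 (4596 to 5316 against 3863 to 4979). These shifts occurred in the same mice as the iron results below, and their part in those results was not tested. In whole liver, fewer cells of a type and less RNA per cell cannot be told apart. FeSO4/PBS mouse 1 stood apart from its group, with a chi-square per gene of 89.5 and 71.4 against the other FeSO4/PBS mice, which differed from each other by 24. Pairs within the other groups lay between 18.3 and 37.

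Divided by transcript length, the mRNAs of the control liver (NaCl/PBS mice) differed widely in level. The length was that of 1 transcript per gene, the Ensembl canonical one, and the order of genes depends on that choice. Hpd, which encodes the dioxygenase that converts the keto acid of tyrosine, was the most abundant, with 25010 ± 2240 normalized counts per kb in NaCl/PBS mice (SD, n = 3). The next 3, at 5749 ± 468 for Fah, 5315 ± 279 for Gstz1 and 5140 ± 839 for Hgd, also belong to tyrosine breakdown, and neighbours among them overlapped within their SDs. Haao, at 4899 ± 466, and Tdo2, at 4830 ± 425, followed within the same spread. The lowest were Sdsl at 106 ± 12.4, Acmsd at 98 ± 20.3 and Bckdk at 56.5 ± 10.4 normalized counts per kb. Sdsl and Acmsd were within their SDs of each other, and both lay above Bckdk. In FeSO4/PBS mice, Got1 (9290 ± 1020) and Agxt (8924 ± 604) were at the levels next below that of Hpd, and Bckdk was down to 6.54 ± 1.00 per kb.

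**Figure D1:**
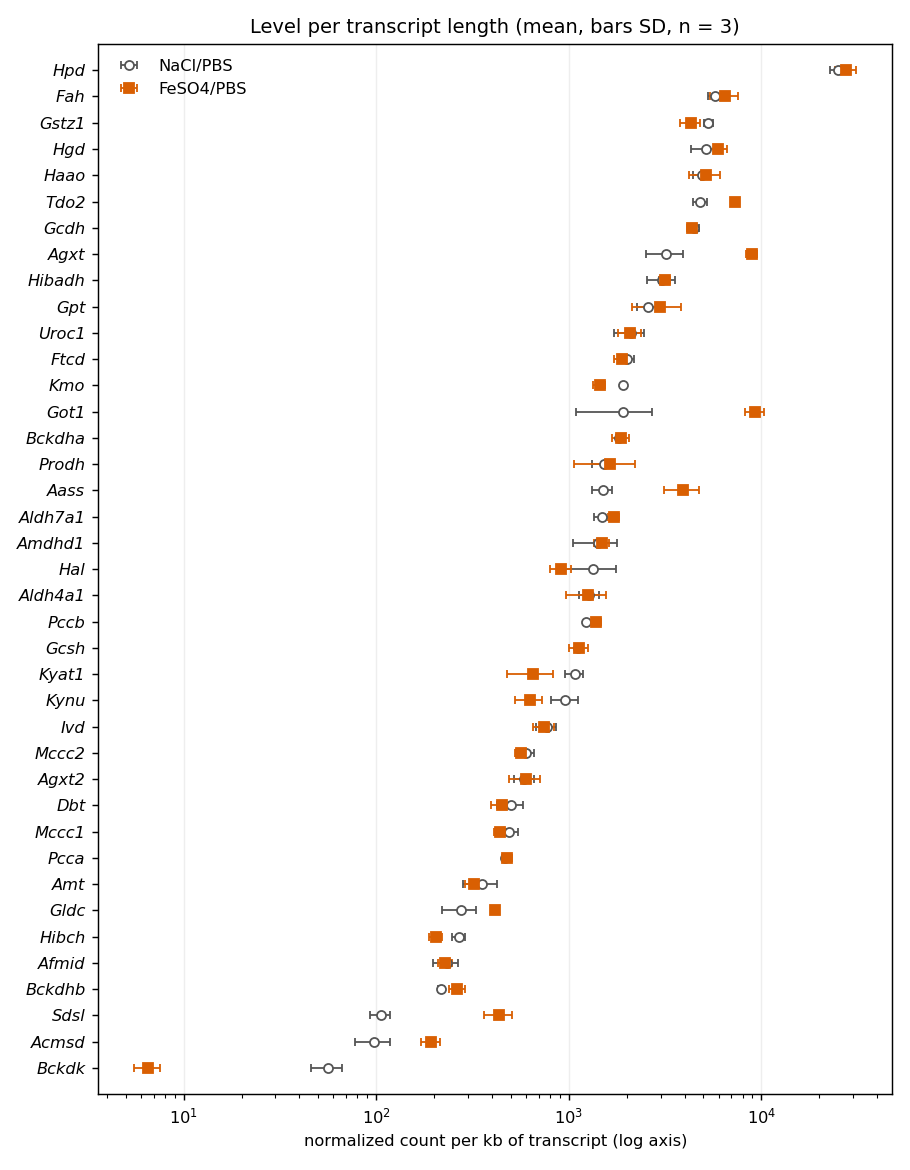
Mean level of each of the 39 genes, as normalized counts per kb of transcript on a log axis, in NaCl/PBS mice (open circles) and FeSO4/PBS mice (filled squares), ordered by the NaCl/PBS level, with bars for the SD over 3 mice. Most genes kept their place after iron, while Got1, Agxt, Aass and Sdsl lay to the right of their NaCl/PBS level and Bckdk far to the left.

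The first question was which of these genes responded to iron overload alone. In FeSO4/PBS mice compared with NaCl/PBS mice, 8 of the 39 genes were higher and 6 were lower at a false discovery rate (edgeR FDR) of 0.05 or less, while 25 were not called. Among all tested genes, 27.2% were called higher and 27.3% lower, so the shares of the 39, at 20.5% and 15.4%, were not above those of all genes. With a log2 fold change (LFC) beyond 1 in addition, 4 genes were higher (Got1, Sdsl, Agxt and Aass) and 1 was lower (Bckdk), against 12.5% and 14.7% of all genes. The median LFC of the 39 was 0.03, beside -0.015 for all tested genes. The rises were found in the glycine-serine group (3 of 6), tryptophan breakdown (2 of 7), lysine breakdown (1 of 3), transamination (1 of 4) and branched-chain breakdown (1 of 11). The falls were found in tryptophan (3 of 7), branched-chain (2 of 11) and tyrosine breakdown (1 of 4), and no histidine gene was called. The counts by direction depended on the scaling of the libraries. With library size alone, which moved the median LFC of all genes to -0.336, 5 of the 39 were called higher and 17 lower, and 28.2% of all calls were higher instead of 49.9%.

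DESeq2 called 9 of the 39 higher, with Pccb added, and 6 lower. Without FeSO4/PBS mouse 1, which stood apart, 7 were higher and 6 lower, and the LFCs were 2.28 for Got1, 1.90 for Sdsl, 1.44 for Aass, 1.44 for Agxt and -3.20 for Bckdk.

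**Figure D2:**
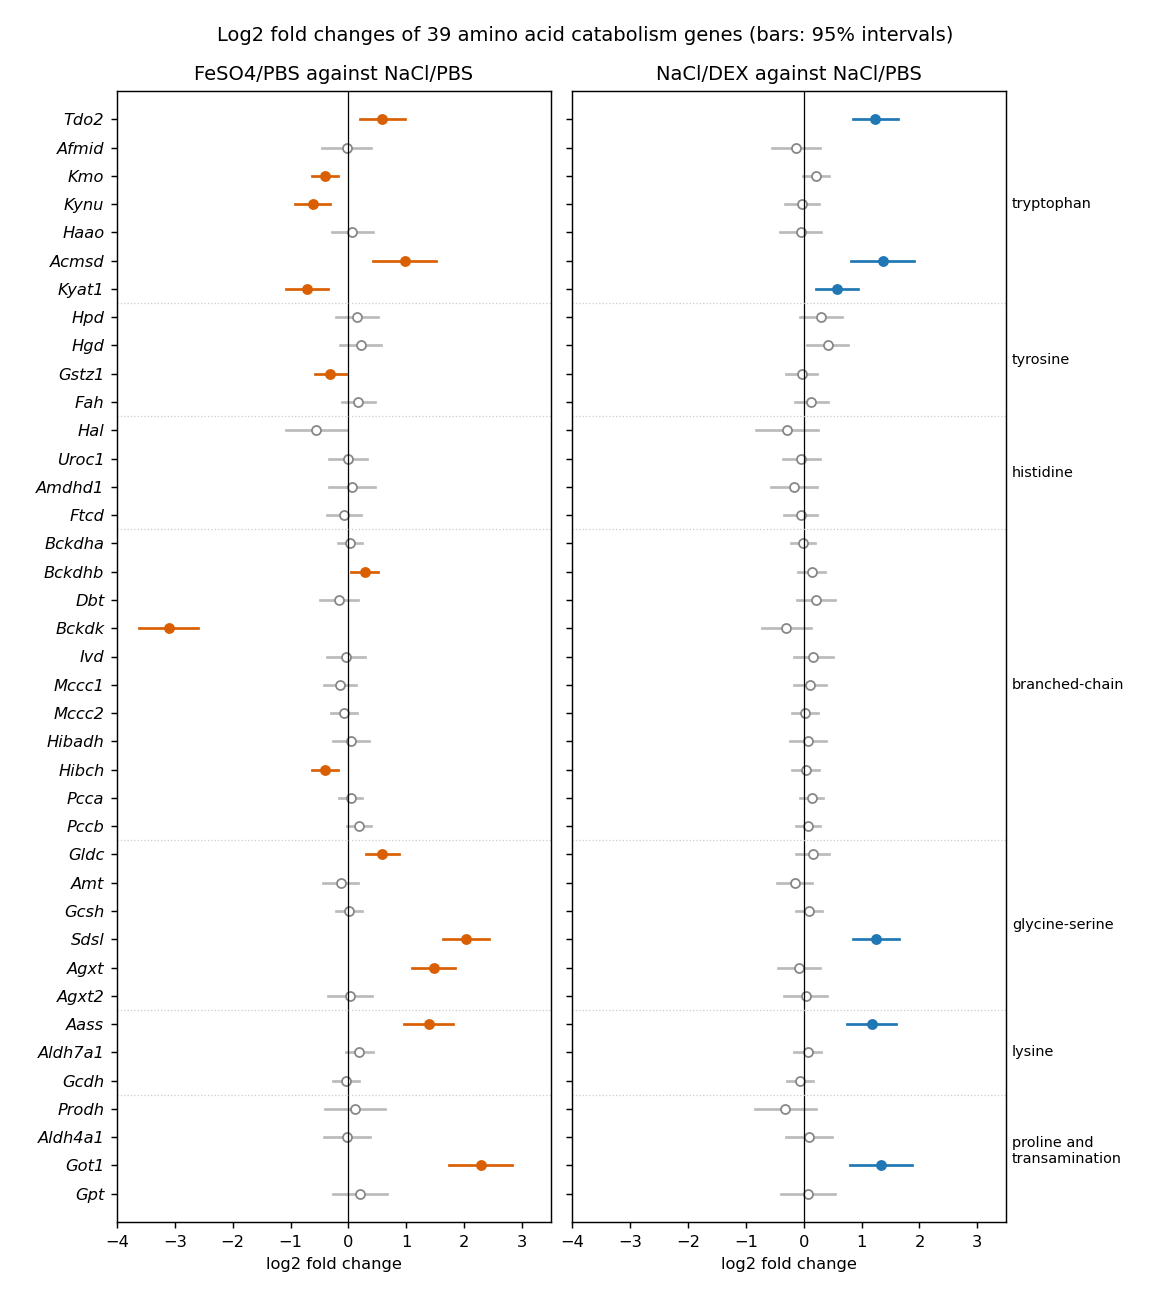
LFC of each of the 39 genes after iron (left, FeSO4/PBS against NaCl/PBS) and after DEX (right, NaCl/DEX against NaCl/PBS), with bars for the 95% interval and filled points for an edgeR FDR of 0.05 or less. After iron, 8 filled points lie right of 0 and 6 left of it, whereas after DEX all 6 filled points lie right of 0.

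In the tryptophan pathway, the entry enzyme and 1 branch enzyme were higher after iron, and 3 of the listed enzymes after the entry step were lower. Tdo2 (ENSMUSG00000028011, chr3:81864248-81883509; all positions are on GRCm39) encodes tryptophan dioxygenase, the enzyme that opens the indole ring and starts the kynurenine pathway. Its normalized counts were 16179.9, 16672 and 19025 in NaCl/PBS mice and 27068, 24995 and 25927 in FeSO4/PBS mice. The groups did not overlap, and the LFC was 0.59 (edgeR FDR 0.013, SE 0.18). With library size alone, this LFC was 0.27 and lost its call (edgeR FDR 0.18). Acmsd, whose product diverts the pathway away from NAD synthesis, had 325, 215 and 261 normalized counts in NaCl/PBS mice and 561, 558 and 459 in FeSO4/PBS mice, also without overlap, with an LFC of 0.98 (edgeR FDR 0.0048, SE 0.25).

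The falls concerned enzymes that act on kynurenine or its hydroxylated form. Kyat1, a kynurenine aminotransferase, had 2249.9, 2074 and 2568 normalized counts in NaCl/PBS mice and 1236, 1832 and 1140.1 in FeSO4/PBS mice, an LFC of -0.71 (edgeR FDR 0.0028, SE 0.17). Kynu, which encodes kynureninase, fell from 2631 ± 425 to 1716 ± 269.6 (SD over 3 mice each), with an LFC of -0.62 (edgeR FDR 0.0018, SE 0.14). Kmo, the kynurenine hydroxylase, fell from 5209 ± 89.5 to 3937 ± 287 (SD over 3 mice each), with an LFC of -0.40 (edgeR FDR 0.0057, SE 0.11). In all 3 genes every FeSO4/PBS mouse lay below every NaCl/PBS mouse. Not every kynurenine aminotransferase fell. Kyat3, from the list of other breakdown genes, rose from 3776 ± 443 to 5160 ± 1124 normalized counts (SD over 3 mice each). Its LFC was 0.45 (edgeR FDR 0.027, SE 0.16), and its groups did not overlap. Aadat, from the same list, was not called, with means of 1468 in NaCl/PBS and 1377 in FeSO4/PBS mice. Kmo and Kynu are also expressed by macrophages, whose liver-resident markers fell in the same mice (summed 6353 to 7335 against 3324 to 3929 normalized counts). Whether this bears on the falls of Kmo and Kynu was not tested. The other members, Afmid, which hydrolyses formylkynurenine, and Haao, which makes the precursor of quinolinate, were not called in any comparison. Group means of Afmid lay between 501 and 692 normalized counts and those of Haao between 7129.9 and 7756.

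Of the tyrosine genes 1 of 4 was called after iron, and of the histidine genes 0 of 4, where 1 had an unadjusted edgeR p below 0.05 and DESeq2 called 0. Gstz1, whose product isomerises maleylacetoacetate in tyrosine breakdown, fell from 11853 ± 622 to 9569 ± 1085 normalized counts (SD over 3 mice each), an LFC of -0.31 (edgeR FDR 0.045, SE 0.12). This call was lost when any mouse other than FeSO4/PBS mouse 1 was left out, with edgeR FDRs from just above 0.05 to 0.18. Hpd, Hgd, which opens the ring of homogentisate, and Fah, which carries out the last step, were not called. Their 4 group means lay between 35795 and 44573, between 8774 and 11751 and between 9112 and 10472 normalized counts. In histidine breakdown, Hal removes the amino group, and Uroc1, Amdhd1 and Ftcd carry the product on to glutamate and the folate pool. Group means lay between 4847 and 7102 for Hal, between 7288 and 8299 for Uroc1, between 3077 and 3757 for Amdhd1 and between 5251 and 5554 for Ftcd. Hal varied widely among the control mice, with 7941, 4494 and 8871 normalized counts in NaCl/PBS mice. It had 5086, 5295 and 4159 in FeSO4/PBS mice, so that its groups overlapped.

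Among the branched-chain genes the largest change was that of the kinase. Bckdk (ENSMUSG00000030802, chr7:127502939-127510162) had 161, 235 and 207 normalized counts in NaCl/PBS mice and 26.2, 19.3 and 24.2 in FeSO4/PBS mice. Every FeSO4/PBS mouse lay far below every NaCl/PBS mouse, and the level was 8.59-fold lower, an LFC of -3.10 (edgeR FDR 2.2e-07, SE 0.24). These levels rest on few reads, 224 to 251 per NaCl/PBS library and 19 to 26 per FeSO4/PBS library. None of the 3 listed genes of the dehydrogenase that BCKDK acts on was called lower. The E1 alpha subunit Bckdha and the E2 subunit Dbt were not called in any comparison, with group means between 3487 and 3746 and between 1496 and 1941 normalized counts. The E1 beta subunit Bckdhb rose from 1084 ± 37 to 1316 ± 133 (SD over 3 mice each), an LFC of 0.28 (edgeR FDR 0.044, SE 0.11). That call was lost when any mouse other than FeSO4/PBS mouse 3 was left out, with edgeR FDRs of 0.07 to 0.13, and its sign changed to an LFC of -0.042 with library size alone (edgeR FDR 0.75).

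Further down the branched-chain pathways, Hibch, a hydrolase of valine breakdown, fell from 1392 ± 107 to 1051 ± 85.7 normalized counts (SD over 3 mice each) after iron, an LFC of -0.41 (edgeR FDR 0.0053, SE 0.11). Hibadh, the dehydrogenase of the next step, was not called, with group means between 5608 and 6102. The leucine genes were not called either. Ivd, the dehydrogenase of isovaleryl-CoA, had group means between 3652 and 4227, and the carboxylase subunits Mccc1 and Mccc2 had means between 1090.5 and 1297 and between 1228 and 1311. Pcca and Pccb, the subunits of propionyl-CoA carboxylase where the isoleucine and valine routes meet, lay between 1268 and 1438 and between 2839.8 and 3383 normalized counts. Pccb had 2866, 2856 and 2797 in NaCl/PBS mice and 3107, 3430.3 and 3163 in FeSO4/PBS mice. These groups did not overlap, but edgeR did not call Pccb (edgeR FDR 0.11).

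The glycine-serine group, which includes the glycine-forming enzyme of Agxt, held the largest share of rises among the groups, 3 of 6 genes beside 27.2% of all tested genes. That share rests on few genes and was not tested. Sdsl (ENSMUSG00000029596, chr5:120596251-120611060) encodes a serine dehydratase-like enzyme that removes the amino group of serine and threonine. Its normalized counts were 131, 156 and 126 in NaCl/PBS mice and 669, 491 and 536 in FeSO4/PBS mice, a 4.11-fold rise without overlap and an LFC of 2.04 (edgeR FDR 1.1e-06, SE 0.19). Agxt (ENSMUSG00000026272, chr1:93062962-93073143) encodes the peroxisomal alanine-glyoxylate aminotransferase, which turns glyoxylate into glycine. It had 5539.8, 3751 and 5677 normalized counts in NaCl/PBS mice and 14699, 12846 and 14032 in FeSO4/PBS mice, and the groups did not overlap. The rise was 2.78-fold, and the LFC was 1.47 (edgeR FDR 9.2e-06, SE 0.17). The mitochondrial relative Agxt2 was not called, with group means between 2049 and 2205. Of the glycine cleavage system, the decarboxylase Gldc rose from 2114 ± 431 to 3184 ± 96.4 (SD over 3 mice each), an LFC of 0.59 (edgeR FDR 0.0018, SE 0.13), and lost its call with library size alone (edgeR FDR 0.095). Its partners Amt and Gcsh were not called, with group means between 719.6 and 864 and between 1606 and 1767 normalized counts.

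In lysine breakdown the entry enzyme rose and the later enzymes were not called. Aass (ENSMUSG00000029695, chr6:23072172-23132991) encodes the bifunctional enzyme that joins lysine to oxoglutarate and splits the product. Its normalized counts were 5999, 4817 and 5840.4 in NaCl/PBS mice and 13534, 17895 and 12176 in FeSO4/PBS mice, a 2.62-fold rise without overlap and an LFC of 1.39 (edgeR FDR 4.9e-05, SE 0.20). Aldh7a1, which oxidises the semialdehyde formed from it, had group means between 5937 and 7183, and Gcdh, the dehydrogenase of glutaryl-CoA, between 8978 and 9626.

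Of the transaminases, Got1 (ENSMUSG00000025190, chr19:43488188-43513674), the cytosolic aspartate aminotransferase, had 3416, 2617 and 5870.1 normalized counts in NaCl/PBS mice and 19594, 21341 and 17119.9 in FeSO4/PBS mice. NaCl/PBS mouse 3 was the highest of its group and still lay far below the FeSO4/PBS mice. The rise was 4.88-fold, an LFC of 2.29 (edgeR FDR 6e-06, SE 0.26). Gpt, the alanine aminotransferase, was not called and had group means between 4794 and 5948. The same held for the proline enzymes Prodh, which opens proline oxidation, and Aldh4a1, which completes it, with group means between 2906 and 4187 and between 4306 and 4853 normalized counts.

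Sequences before the RefSeq start sites are shown for a gene that rose after either treatment (Aass) and a gene that rose after iron but was not called after DEX (Agxt), since GCs act through binding sites in DNA. They are the 250 bases before the start in the RefSeq table of build GRCm38.p6, placed on GRCm39 by an exact match, at chr6:23132986-23133235 on the minus strand for Aass and chr1:93062712-93062961 on the plus strand for Agxt. Both are written 5′ to 3′ in the gene's direction, and capitals mark the only motif match, TGTTCT, 129 to 124 bases before the start of Agxt.
Aass: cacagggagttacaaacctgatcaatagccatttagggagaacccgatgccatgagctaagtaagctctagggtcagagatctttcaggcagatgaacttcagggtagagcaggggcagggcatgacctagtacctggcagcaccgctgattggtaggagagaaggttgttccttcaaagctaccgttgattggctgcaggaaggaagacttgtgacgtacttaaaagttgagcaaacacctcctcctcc
Agxt: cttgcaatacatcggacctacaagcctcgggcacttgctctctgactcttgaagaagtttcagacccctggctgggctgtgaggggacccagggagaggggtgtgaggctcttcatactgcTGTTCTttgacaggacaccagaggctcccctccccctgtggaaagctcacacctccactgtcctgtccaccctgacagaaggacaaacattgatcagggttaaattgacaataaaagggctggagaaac
TGTTCT is the reverse complement of AGAACA, 1 arm of the glucocorticoid response element. The arm was searched on both strands and occurs in 6 of the 34 genes with a sequence in the table (17.6%), namely Haao, Kyat1, Bckdhb, Bckdk, Pccb and Agxt, beside 16.2% of 27018 promoters. The full palindrome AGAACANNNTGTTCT, which contains the arm on each side, was in none of the 34 and in 0.0037% of all promoters. The HNF4A element CAAAGTCCA was in Agxt2 (2.94% of the 34, against 0.381% of all), while the C/EBP palindrome TTGCGCAA and the HNF1 element GTTAATNATTAAC were in none (0.17% and 0.0074% of all). A match of letters is no evidence of binding, and sites farther from the start were not searched.

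The second question was which genes responded to DEX in mice without iron. In NaCl/DEX compared with NaCl/PBS mice, 6 of the 39 genes (15.4%) were higher and 0 (0%) were lower with edgeR, beside 6.5% and 7.15% of all tested genes. DESeq2 called the same numbers, 6 and 0, and over both directions 7 of the 39 had an unadjusted edgeR p below 0.05. The 6 were Tdo2, Acmsd and Kyat1 of tryptophan breakdown, Sdsl of serine breakdown, Aass of lysine breakdown and Got1. All but Kyat1 had LFCs above 1. The median LFC of the 39 was 0.071 beside -0.025 for all genes. No gene of the tyrosine, histidine or branched-chain groups was called. With library size alone, the share of higher calls among all genes was 25.8% instead of 47.6%. The NaCl/PBS mice are the controls of both the iron and the DEX comparison, so the lists of genes called in them are not independent.

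Tdo2 had 47212, 37175 and 37868 normalized counts in NaCl/DEX mice, all above the NaCl/PBS mice and above the FeSO4/PBS mice given earlier. Its LFC after DEX was 1.24 (edgeR FDR 0.00042, SE 0.18), a 2.36-fold rise. Acmsd had 846, 469 and 758 normalized counts, an LFC of 1.37 (edgeR FDR 0.0023, SE 0.25), with NaCl/DEX mouse 2 the lowest of the group and still above every NaCl/PBS mouse. Kyat1, which was lower after iron, was higher after DEX, with 3027, 3262 and 4011 normalized counts and an LFC of 0.58 (edgeR FDR 0.035, SE 0.17). The Kyat1 call was lost when NaCl/PBS mouse 1 or 2 or NaCl/DEX mouse 2 or 3 was left out, with edgeR FDRs of 0.10, 0.11, 0.062 and 0.16 in that order, and with library size alone (edgeR FDR 0.093).

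Sdsl reached 292, 346 and 346 normalized counts in NaCl/DEX mice, an LFC of 1.25 (edgeR FDR 0.00043, SE 0.19). Aass reached 14328, 11315 and 11974, an LFC of 1.18 (edgeR FDR 0.001, SE 0.20), and Got1 reached 11796, 10167 and 8168, an LFC of 1.34 (edgeR FDR 0.0024, SE 0.25). In each of these genes all 3 NaCl/DEX mice lay above all 3 NaCl/PBS mice. Sdsl and Got1 stayed below every FeSO4/PBS mouse, whereas the Aass values of the NaCl/DEX and FeSO4/PBS mice overlapped. Agxt, with 5209, 4303 and 4633 normalized counts in NaCl/DEX mice, overlapped with its NaCl/PBS values. Bckdk, with 144, 183 and 160.1, also overlapped with its controls.

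**Figure D3:**
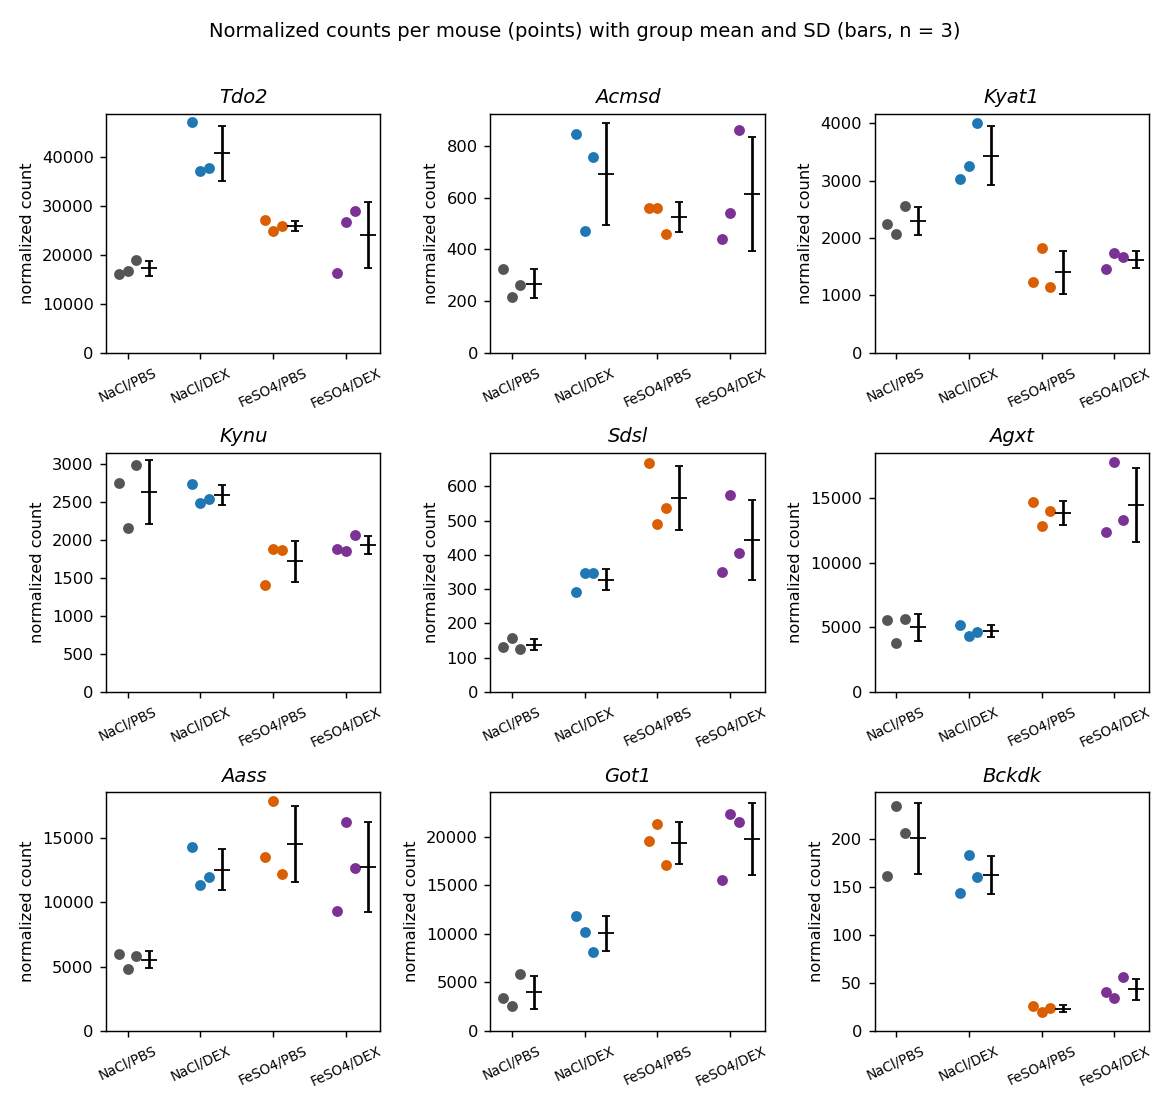
Normalized counts of 9 genes in each of the 12 mice (points), with the group mean and SD over 3 mice (black bars), on linear axes that start at 0. Tdo2 was highest in NaCl/DEX mice, Agxt was high in both FeSO4 groups, and Bckdk was low in both FeSO4 groups.

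The third question was whether DEX still acted after iron. In FeSO4/DEX compared with FeSO4/PBS mice, 0 of the 39 genes were called higher and 0 lower with edgeR, and 0% and 0% of all tested genes. DESeq2 called 0 of the 39, and 5 higher and 5 lower among all genes, and 1 of the 39 had an unadjusted edgeR p below 0.05, beside 900 of all tested genes. A call missed in 1 group of mice and made in the other does not show a difference, so the DEX responses were compared directly. The response in FeSO4 mice minus that in NaCl mice was lower for 4 genes (Tdo2, Sdsl, Aass and Got1) and higher for 1 (Bckdk), beside 3.2% and 2.99% of all tested genes. DESeq2 called 5 lower, with Acmsd added, and 1 higher. Tdo2, Sdsl, Aass and Got1 were already called higher after iron without DEX. FeSO4/PBS means lay above NaCl/DEX means for Sdsl (565 against 328), Got1 (19351 against 10044) and Aass (14535 against 12539, overlapping). For Tdo2 the FeSO4/PBS mean lay below (25997 against 40751.5). Whether these starting levels bear on the differences was not tested. With library size alone, the share of higher differences among all calls was 63.7% instead of 48.3%.

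Tdo2 had 16378, 26767 and 29097 normalized counts in FeSO4/DEX mice, so that mouse 1 lay below and mouse 3 above all FeSO4/PBS mice. The LFC by DEX in FeSO4 mice was -0.11 (95% interval -0.50 to 0.28), and the difference between the responses was -1.35 (edgeR FDR 0.0068, SE 0.26). Sdsl had 351, 575 and 405, with an LFC of -0.35 (95% interval -0.73 to 0.02) and a difference of -1.61 (edgeR FDR 0.0021, SE 0.26). The intervals of Tdo2 and Sdsl in FeSO4 mice ended below those in NaCl mice (0.85 to 1.63 for Tdo2 and 0.86 to 1.65 for Sdsl). The same held for Aass, Got1 and Acmsd (0.755 to 1.595, 0.806 to 1.874 and 0.825 to 1.909 in NaCl mice). The difference of Acmsd was not called with edgeR. Aass had 9328, 16263 and 12650.2 normalized counts, with an LFC of -0.19 (95% interval -0.60 to 0.23) and a difference of -1.36 (edgeR FDR 0.0092, SE 0.27). Got1 had 15495, 22357 and 21470.5, with an LFC of 0.03 (95% interval -0.49 to 0.56) and a difference of -1.31 (edgeR FDR 0.04, SE 0.35). FeSO4/DEX mouse 1 had the lowest value of its group in all 4 genes, and the 39 genes took 0.999% of its counts, the lowest share of the 12 libraries. Without that mouse the differences were -1.14 for Tdo2, -1.47 for Sdsl and -1.19 for Aass (edgeR FDR 0.0046, 0.0053 and 0.018).

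The differences of Tdo2, Sdsl and Aass kept their calls with each of the 12 mice left out in turn. All 5 calls were kept without FeSO4/PBS mouse 1. That of Got1 lost its call without 7 of the 12 mice, namely NaCl/PBS mouse 1 or 2, NaCl/DEX mouse 1 or 2, FeSO4/PBS mouse 2, or FeSO4/DEX mouse 1 or 3, with edgeR FDRs of 0.058 to 0.097, and with library size alone (0.053). Bckdk had 40.6, 34 and 55.9 normalized counts in FeSO4/DEX mice, all above the FeSO4/PBS mice and all below both NaCl groups. Its LFC by DEX was -0.30 in NaCl mice and 0.91 in FeSO4 mice, neither of which was called (edgeR FDR 0.36 and 0.7), and the difference was 1.21 (edgeR FDR 0.043, SE 0.33). The Bckdk call was kept without NaCl/PBS mouse 1, FeSO4/PBS mouse 1 or FeSO4/DEX mouse 2 and lost without any other single mouse, with edgeR FDRs of 0.057 to 0.14. Of the other genes called after DEX, Acmsd had 439.8, 539.7 and 859.7 and Kyat1 1463, 1744 and 1671 normalized counts in FeSO4/DEX mice. Their differences, with 95% intervals of -1.91 to -0.39 for Acmsd and -0.88 to 0.14 for Kyat1, did not pass the test (edgeR FDR 0.073 and 0.42).

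**Figure D4:**
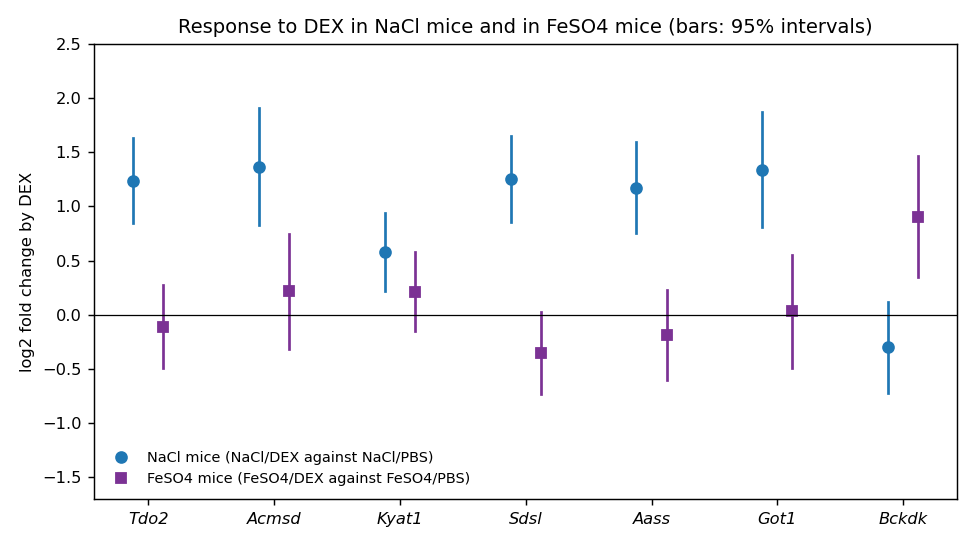
LFC by DEX in NaCl mice (circles) and in FeSO4 mice (squares) for the 6 genes called in NaCl mice and for Bckdk, with bars for the 95% interval. The circles of the 6 genes lie above 0, between 0.58 and 1.37, whereas their squares lie between -0.35 and 0.22.

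Iron was also compared among mice that all received DEX. In FeSO4/DEX compared with NaCl/DEX mice, 3 of the 39 genes were higher and 6 were lower, beside 22.4% and 20.9% of all tested genes, and the median LFC was 0.051 beside 0.014 for all. With library size alone 11 were lower, and 34.2% of all calls were higher instead of 51.7%. Agxt was higher, with an LFC of 1.62 (edgeR FDR 6.3e-06, SE 0.17). Its FeSO4/DEX values of 12374, 17767 and 13272 normalized counts did not overlap with those of NaCl/DEX mice. Got1 and Gldc were also higher, with LFCs of 0.98 (edgeR FDR 0.0055, SE 0.25) and 0.63 (edgeR FDR 0.0016, SE 0.13). Without FeSO4/DEX mouse 1, which was low in the genes above, 5 instead of 3 genes were called higher, and without a filter on low counts 6 were.

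The lower genes were Bckdk, at an LFC of -1.90 (edgeR FDR 1.4e-05, SE 0.22), Hibch, and 4 of the 7 tryptophan genes. Kyat1 had the largest fall of these 4, with an LFC of -1.08 (edgeR FDR 0.00018, SE 0.17). Tdo2 was lower at an LFC of -0.76 (edgeR FDR 0.0038, SE 0.18), the opposite sign from the comparison without DEX, and Kmo was lower at -0.59 (edgeR FDR 0.00058, SE 0.11). Kynu had an LFC of -0.42 (edgeR FDR 0.024, SE 0.14) and Hibch of -0.34 (edgeR FDR 0.02, SE 0.11). The call of Kynu was lost without NaCl/DEX mouse 1, FeSO4/DEX mouse 1 or FeSO4/DEX mouse 2 (edgeR FDRs of 0.075, 0.064 and 0.055). That of Hibch was lost without NaCl/DEX mouse 1, NaCl/DEX mouse 3 or FeSO4/DEX mouse 1 (0.076, 0.067 and 0.057). Sdsl and Aass, which were higher after iron without DEX, were not called here, with group means of 328 against 444 and 12539 against 12747 normalized counts.

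A list of 40 other genes of amino acid breakdown was counted in the same model, and 37 of them were tested. After iron, 6 (16.2%) were higher and 7 (18.9%) lower, both below the 27.2% and 27.3% of all tested genes, with a median LFC of 0.011. The largest rises were those of Tat, the tyrosine aminotransferase that precedes Hpd (LFC 2.48, edgeR FDR 2.5e-07), Sds, the serine dehydratase related to Sdsl (LFC 1.77, edgeR FDR 0.00016), and Gpt2, a mitochondrial alanine aminotransferase (LFC 0.74, edgeR FDR 0.00042). The largest falls were those of Bcat2, a branched-chain aminotransferase (LFC -2.53, edgeR FDR 3.9e-06), Ppm1k, the phosphatase that opposes BCKDK (LFC -1.59, edgeR FDR 1.7e-05), and Ido2, which can start tryptophan breakdown (LFC -1.58, edgeR FDR 4.3e-06). The mRNAs of the kinase and of the phosphatase of the branched-chain dehydrogenase fell in the same mice.

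After DEX in NaCl mice, 4 of these 37 genes (10.8%) were higher and 2 (5.41%) lower, beside 6.5% and 7.15% of all tested genes. Tat rose by an LFC of 2.23 (edgeR FDR 5.3e-06, SE 0.19), Sds by 1.34 (edgeR FDR 0.0058, SE 0.28) and Gpt2 by 0.73 (edgeR FDR 0.0023, SE 0.14), while the LFC of Bcat2 was -1.07 (edgeR FDR 0.0098, SE 0.25) and that of Aspg, an asparaginase, -0.60 (edgeR FDR 0.048, SE 0.19). In FeSO4 mice, DEX was followed by 0 calls among the 37 with edgeR and with DESeq2, and 1 had an unadjusted p below 0.05. The difference between the DEX responses was called for Tat (-2.20, edgeR FDR 0.00025), Gpt2 (-0.69, edgeR FDR 0.048) and Bcat2 (1.47, edgeR FDR 0.033), so that 2 differences (5.41%) were lower and 1 (2.7%) higher, beside 3.2% and 2.99% of all tested genes. Among mice given DEX, 2 of the 37 (5.41%) were higher and 6 (16.2%) lower in FeSO4 mice, both below the 22.4% and 20.9% of all tested genes.

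Some exons of the 39 genes overlap those of other genes in GENCODE vM39. Tdo2 shares 2004 bases with Ctso, Hibch 2013 bases with 1700019D03Rik, Gstz1 1909 bases with Tmed8 and Kmo 188 bases with Fh1, all on the opposite strand. Bckdha shares 2386 bases with B3gnt8, also on the opposite strand. On the same strand, Afmid shares 1566 bases with Gm20708 and Aldh4a1 1595 bases with Gm21969. Shorter overlaps on the same strand are those of Agxt2 with Gm21973 (155 bases) and Hibadh with Gm24355 (122 bases). The counts of these genes are therefore uncertain. The libraries were stranded, but the strand setting of the counting is not given in the sources used here. Whether reads of such partners were separated was not tested.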

How the data were processed

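Per the labels and the methods, the authors prepared libraries from total liver RNA with a stranded mRNA kit and mapped reads to mm39 with STAR 2.7.10b; the submitters' notes also name FastQC and DESeq2. The counts the authors deposited are unnormalized whole numbers of reads for 55414 Ensembl genes in 12 libraries, of which 30401 had no count in any. Symbols came from GENCODE vM39 on GRCm39.

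From these counts, edgeR 4.0.16 (R 4.3.3, limma 3.58.1) kept 13857 genes with its filter on low counts. All 12 libraries were fitted together by quasi-likelihood with 1 mean for each of the 4 groups and TMM scaling (factors 0.871 to 1.159), and Benjamini-Hochberg adjustment ran over all tested genes. Calls had an edgeR FDR of 0.05 or less. Standard errors were taken from the LFC and its F statistic. Normalized counts are counts divided by the TMM-scaled library size and multiplied by the mean of these sizes. No 2 libraries of a group agreed within sampling noise (chi-square per gene 18.3 to 89.5), so each counted as 1 mouse. Motifs were searched with Python 3.11.15, and figures were drawn with matplotlib 3.10.9.

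Called genes of the list are named with their fold change, and mouse by mouse where the LFC was beyond 1 in size or where a DEX comparison or the difference between the responses was called. Genes not called are named with group levels, although LFCs by DEX in FeSO4 mice stand beside the difference that they enter. Hal and Pccb depart from this rule: edgeR did not call them after iron, and they are still given mouse by mouse. Of the other breakdown genes, the 3 largest rises and 3 largest falls after iron and the 5 largest changes after DEX are named, and those called in the difference. Kyat3 and Aadat are also named, beside Kyat1. The genes and lists were chosen with earlier results of these data known. Of the other breakdown genes, Gcat had 2 rows and was left out, and Dao and Tdh did not pass the filter. Alternatives were DESeq2 1.42.0, DESeq2's size factors, library size alone, no filter, a minimum of 10 counts per library, a block for the replicate number, the libraries of a comparison alone, an LFC beyond 1, and each mouse left out.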

Additional observations from a re-analysis of the deposited data

Results flagged for a closer look

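In 8 genes the response to DEX differed between NaCl mice and FeSO4 mice by a test of the difference itself, as the LFC in FeSO4 mice minus that in NaCl mice (edgeR quasi-likelihood test, 3 mice per group). Among the 39 genes, Sdsl differed by -1.61 (LFC 1.25 in NaCl mice and -0.35 in FeSO4 mice), Aass by -1.36 (1.18 and -0.19), Tdo2 by -1.35 (1.24 and -0.11) and Got1 by -1.31 (1.34 and 0.03). Bckdk differed in the other direction, by 1.21, from an LFC of -0.30 in NaCl mice to 0.91 in FeSO4 mice, on 19 to 47 reads per FeSO4 library. Among the other genes of amino acid breakdown, Tat differed by -2.20 (2.23 and 0.03), Gpt2 by -0.69 (0.73 and 0.04) and Bcat2 by 1.47 (-1.07 and 0.40). Groups of 3 mice are too small for the test of outlying samples. FeSO4/PBS mouse 1 nevertheless stood apart (chi-square per gene 89.5 and 71.4 against the other FeSO4/PBS mice), and without it the differences of the 5 listed genes were -1.36 for Tdo2, 1.27 for Bckdk, -1.51 for Sdsl, -1.46 for Aass and -1.34 for Got1.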

How the results depend on the processing

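The 34 calls of the 39 genes were refitted 467 times in all, and 51 calls were lost and 1 reversed. DESeq2 kept 34 of 34 and called 9 instead of 8 higher after iron and 5 instead of 4 lower differences, adding Pccb and Acmsd. Among the other breakdown genes, DESeq2 called 7 higher after DEX instead of 4, 3 lower instead of 2, and 4 lower differences instead of 2. With library size alone, 5 of the 39 genes were higher and 17 lower after iron. In FeSO4/DEX against NaCl/DEX mice 11 were lower, and Bckdhb reversed after iron to an LFC of -0.042. TMM factors were 1.144 to 1.159 in NaCl/PBS libraries and 0.896 to 0.952 in FeSO4/PBS libraries. Which scaling is nearer the truth was not tested. Library size alone moved the median LFC of all genes after iron from -0.015 to -0.336. It also moved the share of higher calls from 47.6% to 25.8% after DEX, from 51.7% to 34.2% between the DEX groups and from 48.3% to 63.7% for the difference between the DEX responses. With an LFC beyond 1, 4 genes were higher and 1 lower after iron, and 1 higher and 2 lower between the DEX groups. Without a filter on low counts, 6 genes were higher between the DEX groups; the cause was not tested. With 1 mouse left out, genes called higher and lower ranged from 7 to 8 and from 5 to 6 after iron, from 5 to 6 and 0 after DEX, from 3 to 5 and from 4 to 6 between the DEX groups, and from 0 to 1 and from 3 to 4 for the difference.

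Same-numbered mice shared little of their deviations (r of -0.071 to 0.109 over 18 pairs). Differently numbered mice were not compared for reference, so these values cannot decide whether replicate numbers pair samples. With the replicate block, 7 genes were higher and 5 lower after iron, 6 higher after DEX, 3 higher and 6 lower between the DEX groups, and 0 higher and 3 lower for the difference. The block lost the iron calls of Gstz1 (edgeR FDR 0.065) and Bckdhb (0.054) and the differences of Bckdk (0.063) and Got1 (0.057). Beyond these, Gstz1 also lost its call with DESeq2's size factors, Bckdhb with a minimum of 10 counts per library (0.053), both without a filter and with the libraries of the comparison alone, and Hibch between the DEX groups without a filter. Low counts limit Bckdk, with 19 to 26 reads per FeSO4/PBS library.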
